A study of Mus musculus with 38 samples.

Results

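Of the 38 genes chosen for their roles in making cholesterol and in its control by the SREBP transcription factors, 28 had counts in the deposited table and were followed in mouse embryonic stem cells in which the SWI/SNF remodeller was inhibited. A gene belonged to the module when its symbol was on the list and its counts were above 0, and 22408 genes of the whole table had counts. The module held 6 mevalonate enzymes, 10 enzymes from squalene to cholesterol, 3 regulators of SREBP processing, 4 genes of sterol handling, 3 of fatty acid synthesis and 2 targets of the LXR receptors. BRM014 is an inhibitor of BRG1 and BRM, the ATPases that drive SWI/SNF chromatin remodelling. Wild-type cells of 129S6/SvEvTac background, kept on gelatin with fetal calf serum and LIF, received 10 uM BRM014 over 5 times between 30 min and 24 h (30 min, 1 h, 3 h, 6 h, 24 h), or 10 uM of an inactive analog for 1 h or 24 h. Further wild-type cells were sampled 30 min and 1 h after washing out a 1 h treatment, and 6 h and 24 h after washing out a 24 h treatment, and vehicle cells had DMSO for 1 h or 24 h. In a second experimental batch, lines labelled Ino80ko and Snf2hko and wild-type cells received 10 uM BRM014 or DMSO for 24 h. Each group had 2 libraries per batch and only the wild-type BRM014 and DMSO groups of 24 h were in both batches, 38 libraries in all. All treated cells also had DMSO, in which both compounds were dissolved. The dose used before washing is not in the labels, vehicle cells were not sampled at 30 min, 3 h or 6 h, and none were washed. How the mutant lines were made, or whether each is 1 clone, is not stated in the sources used.

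Cells sense their sterol content in the endoplasmic reticulum. When sterols are scarce, the escort protein SCAP carries the SREBP precursors to the Golgi, where proteases release a fragment that enters the nucleus and binds sterol regulatory elements, usually beside NF-Y and SP1, at genes of cholesterol and fatty acid synthesis. When sterols are plentiful, the INSIG proteins hold SCAP back and these genes are transcribed less, while oxysterols activate the LXR receptors, whose targets, such as Abca1, move cholesterol out of the cell. Embryonic stem cells in serum can both make cholesterol and take it up from lipoproteins.

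The promoters of the listed genes, including those without counts, were read for the boxes through which SREBP and its partners are known to work. RefSeq promoter sequences (GRCm38.p6) were matched by symbol for 29 of the 38 listed genes, and the 250 bases before each start were searched on both strands. The CCAAT box of NF-Y was present in 22 of 29 (75.9%), against 37.5% of 27025 genes in the same table, and 13 (44.8%) had at least 2 boxes in 1 promoter, against 11.5%. Of the 22, Srebf1, Srebf2 and Tm7sf2 had no counts in any library and so lie outside the module. The SP1 box GGGCGG was present in 24 of 29 (82.8%), against 35.4%. These backgrounds cover all genes with a promoter sequence, whether or not they had counts here, and were not matched for expression. The SRE core TCACNCCAC was found in Hmgcs1 alone (3.45%, against 1.22% of all genes), and its first 7 letters alone, TCACNCC, in 5 (17.2%, against 15.1%). These matches are descriptions of the letters in these windows. The promoters below were chosen to show the only SRE core, Mvd and Mvk as enzymes with 2 and 5 CCAAT boxes, the fatty acid synthase gene, and Abca1 as an LXR target with no CCAAT box. They do not stand for their roles. Mylip, the other LXR target with counts, had at least 2 CCAAT boxes. Capitals mark the CCAAT box on either strand (ATTGG when it lies on the other one), the SRE core and its first letters. They lie at chr13:119690101-119690350 on the plus strand (Hmgcs1), chr8:122443423-122443672 on the minus strand (Mvd), chr5:114444019-114444268 on the plus strand (Mvk), chr11:120824548-120824797 on the minus strand (Fasn) and chr4:53159896-53160145 on the minus strand (Abca1), and are printed 5′ to 3′ on the strand of the gene.
Hmgcs1: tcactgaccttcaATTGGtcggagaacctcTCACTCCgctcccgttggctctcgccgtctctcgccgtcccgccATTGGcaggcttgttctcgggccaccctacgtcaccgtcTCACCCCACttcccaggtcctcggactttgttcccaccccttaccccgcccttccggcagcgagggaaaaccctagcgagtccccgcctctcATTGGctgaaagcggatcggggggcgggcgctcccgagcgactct
Mvd: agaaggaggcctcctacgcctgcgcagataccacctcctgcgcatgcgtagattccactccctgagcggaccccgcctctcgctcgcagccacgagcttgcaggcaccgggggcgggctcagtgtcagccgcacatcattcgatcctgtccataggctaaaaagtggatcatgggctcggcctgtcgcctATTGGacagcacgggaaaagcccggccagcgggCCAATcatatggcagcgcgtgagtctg
Mvk: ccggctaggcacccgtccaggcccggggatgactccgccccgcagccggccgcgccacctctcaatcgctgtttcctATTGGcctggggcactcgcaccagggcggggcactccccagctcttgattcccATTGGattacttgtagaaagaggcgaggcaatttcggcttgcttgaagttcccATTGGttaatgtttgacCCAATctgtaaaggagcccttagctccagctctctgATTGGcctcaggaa
Fasn: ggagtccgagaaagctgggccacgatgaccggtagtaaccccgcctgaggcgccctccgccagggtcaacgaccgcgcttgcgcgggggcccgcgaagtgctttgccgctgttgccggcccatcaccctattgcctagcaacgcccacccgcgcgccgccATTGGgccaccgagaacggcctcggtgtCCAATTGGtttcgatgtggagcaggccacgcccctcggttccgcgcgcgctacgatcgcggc
Abca1: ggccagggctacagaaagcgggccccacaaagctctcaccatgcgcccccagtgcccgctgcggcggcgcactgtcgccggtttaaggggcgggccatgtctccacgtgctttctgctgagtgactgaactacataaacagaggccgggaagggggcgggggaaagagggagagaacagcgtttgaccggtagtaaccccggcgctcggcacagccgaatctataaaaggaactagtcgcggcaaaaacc
The SRE core of Hmgcs1 began 137 bases before the RefSeq start and its 3 CCAAT boxes at 237, 176 and 45 bases before that start, which differs from the gene start in GENCODE M21. Among the values below, Hmgcs1, Mvd and Mvk were higher after 3 h of BRM014, Mvk not against DMSO 1 h alone, and Fasn and Abca1 were not called at that time. Ebp, a sterol enzyme with 2 CCAAT boxes that is not shown, was not called then either. Abca1 was lower at 6 h and higher at 24 h. Whether the boxes bear on these changes was not tested.

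Libraries held 19.3 to 23.1 M counts in the first batch and 21.9 to 44.5 M in the second. Levels are given as CPM, counts scaled to library size with TMM factors over the 38 libraries, and changes as log2 ± standard error from edgeR's quasi-likelihood test. A gene was called at a Benjamini-Hochberg adjusted p under 0.05 over all genes tested, and the share of all genes called is given as the background for each count of members. All 28 members passed the filter on low counts in each of the 3 fits. The labels call the replicates biological without naming cultures or days, so the p-values speak to the spread among these libraries alone, which may be technical. All 8 embryonic stem cell markers were above 0 in every library, with summed levels of 5399 to 7338 CPM. Smarca4 and Smarca5 (the gene of Snf2h) were listed at 0 in every library, and Ino80 had 119 to 125 CPM in the line labelled Ino80ko with DMSO, against 170.1 to 173 CPM in wild-type cells with DMSO of the same batch. It was about as low in the line labelled Snf2hko with DMSO, at 124.7 to 130.9 CPM. The deleted part of neither gene is given, so the line labels could not be checked from these counts. The 10 listed genes at 0, Fdps, Tm7sf2, Srebf1, Srebf2, Acly, Acaca, Elovl6, Scd2, Fads1 and Abcg1, all overlap another gene on the same strand in GENCODE M21, against 0 of the 28 with counts. Nothing can be said of their expression, and that includes both SREBP genes, Srebf1 and Srebf2, and the desaturase Scd2. A gene on the opposite strand overlaps 10 of the 28, namely Hmgcs1, Mvd, Idi1, Fdft1, Lss, Cyp51, Insig2, Scap, Npc1 and Soat1, and the strand setting of the counting is not given in the sources used here. Per kilobase of exon, the mean level in DMSO 1 h cells was highest for Fasn (90.9 CPM per kb) and Hmgcs1 (89.8 CPM per kb) and lowest for Abca1 (3.53 CPM per kb) and Mylip (1.68 CPM per kb) of the 28 genes.

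The course of BRM014 treatment in wild-type cells had a rise of the sterol enzymes at 3 h, followed by a fall of several of them below vehicle at 24 h. At 3 h, when 31.2% of all genes were called, 14 of the 16 sterol enzymes with counts rose, with a median log2 change of 0.45, and 0 fell. At 6 h (48.4% of all genes called, 24.9% higher) 9 of the 16 were higher and 0 lower (median 0.20). At 24 h (49.6% called, 24.8% in each direction) 2 were higher and 6 lower (median -0.16). The share of sterol enzymes called at 24 h was near that of all genes. The plot of log2 change by time shows this rise and fall gene by gene, with the LXR target Abca1 on an opposite course. Insig1, which is both an SREBP target and a brake on SREBP processing, rose to 139.5 and 144 CPM at 3 h and fell to 47.7 and 44.0 CPM at 24 h in the first batch. In bulk RNA, fewer cells of a type and less RNA per cell cannot be told apart.

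**Figure D1:**
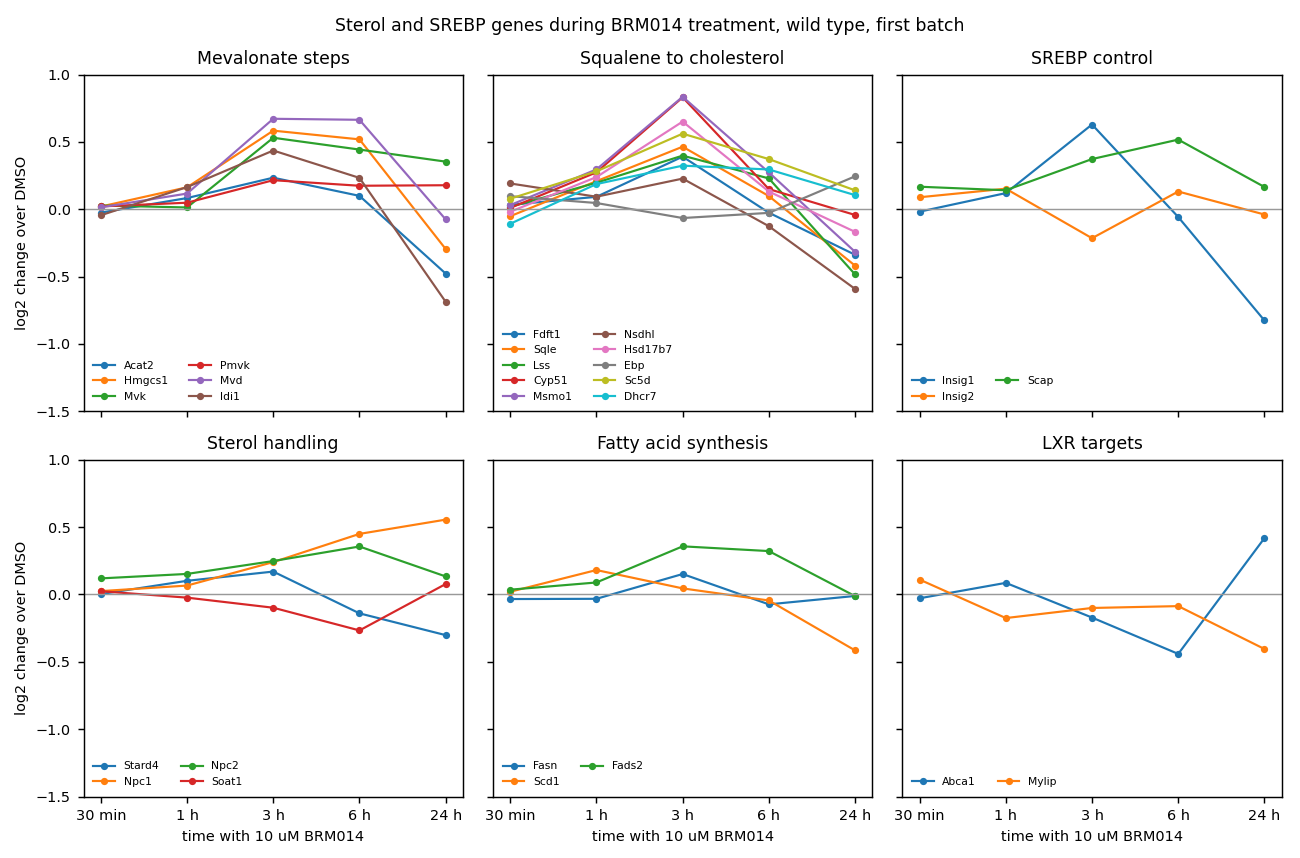
Log2 change of each of the 28 genes with BRM014 over DMSO (y axis) at 30 min, 1 h, 3 h, 6 h and 24 h (x axis), 1 line per gene, in 6 panels by role. The 30 min and 1 h values are against DMSO 1 h, the 3 h and 6 h values against the average of both DMSO times, and the 24 h values against DMSO 24 h in the first batch. The mevalonate and squalene-to-cholesterol lines peak mostly at 3 h, up to 0.83 for Msmo1 and Cyp51, and Insig1 ends at -0.83.

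At 30 min no member was called by edgeR, while 0% of all 12517 genes tested were called. DESeq2 called 0 members as well, and at an unadjusted p under 0.05 edgeR had 1 member, Nsdhl (0.19 ± 0.09), and 348 genes. The median log2 change of the members was 0.02, and 20 of 28 values were above 0. Thus 30 min of inhibitor gave no detectable change of the module at this depth.

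After 1 h of BRM014 2 members were called higher and 0 lower, and 0.599% of all genes were called, 0.216% higher and 0.383% lower. Msmo1, the methylsterol monooxygenase, had 130.3 and 138 CPM after 1 h of BRM014, against 108 and 109.6 CPM with DMSO for 1 h (0.30 ± 0.06, 1.23-fold, edgeR adjusted p = 0.00604). Cyp51, the lanosterol demethylase, had 149 and 141 CPM, against 119 and 120.3 CPM with DMSO (0.27 ± 0.06, 1.21-fold, adjusted p = 0.0291). Both BRM014 libraries were above both DMSO libraries for these 2 enzymes, which both act on the sterol ring after lanosterol is made. Over all 28 members, these 2 enzymes included, 25 values were above 0 and the median was 0.12. With the inactive analog for 1 h the median over members was 0.07. Both calls rested on few libraries: without one library of these groups in turn, the adjusted p was 0.108 to 0.308 for Cyp51, and for Msmo1 it was 0.0165 without BRM014 replicate 1 but 0.0948 to 0.203 without one of the other 3. Neither call held with only the 4 libraries compared in the fit.

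By 3 h 19 of the 28 members were called higher and 0 lower, where 31.2% of all genes were called, 15.5% higher and 15.7% lower. The 3 h and 6 h libraries have no vehicle of their own time, so the average of both DMSO times served as their baseline. The members' median log2 change was 0.34, against -0.01 for all genes. Of the mevalonate enzymes 5 of 6 were called higher (median 0.48), and of the enzymes from squalene to cholesterol 9 of 10 (median 0.43). The exceptions were Pmvk, the phosphomevalonate kinase (0.22), and Ebp, the sterol isomerase (-0.07).

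Among the mevalonate enzymes, Hmgcs1, which makes HMG-CoA, had 573 and 612 CPM after 3 h of BRM014, against 422 and 404 CPM with DMSO for 1 h and 364 and 395 CPM with DMSO for 24 h (0.58 ± 0.05, adjusted p = 6.31e-11). Idi1, the isomerase of isopentenyl diphosphate, had 102 and 115 CPM, against 84.4 and 83.2 CPM with DMSO for 1 h and 69.1 and 83.7 CPM for 24 h (0.44 ± 0.07, adjusted p = 2.87e-05). In both genes the 2 treated libraries lay above all 4 vehicle libraries. Mvd, the decarboxylase, had 0.67 ± 0.10 and Mvk, the mevalonate kinase, 0.53 ± 0.11.

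In the later part of the pathway Msmo1 and Cyp51 rose furthest of all members. Msmo1 had 188 and 198 CPM after 3 h of BRM014, against 108 and 109.6 CPM with DMSO for 1 h and 106 and 109 CPM for 24 h (0.83 ± 0.05, 1.78-fold, adjusted p = 7.39e-14). Cyp51 had 195 and 203 CPM, against 119 and 120.3 CPM with DMSO for 1 h and 102 and 109 CPM for 24 h (0.83 ± 0.05, 1.78-fold, adjusted p = 6.4e-13). Treated and vehicle libraries were far apart for both. Sqle, the squalene epoxidase, had 168 and 170.4 CPM, against 124 and 122 CPM with DMSO for 1 h and 115 and 131 CPM for 24 h (0.46 ± 0.05, adjusted p = 1.19e-07), again with no overlap. Hsd17b7 (0.65 ± 0.08) and Sc5d (0.56 ± 0.06), which act in demethylation and desaturation of the sterol ring, rose by a similar amount, and Fdft1, the squalene synthase (0.39 ± 0.06), Lss, the lanosterol synthase (0.40 ± 0.06), and Dhcr7, the reductase of the last step (0.32 ± 0.09), by less.

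Of the SREBP regulators Insig1 rose to 139.5 and 144 CPM after 3 h of BRM014, against 102 and 105 CPM with DMSO for 1 h and 78.1 and 84.4 CPM for 24 h (0.63 ± 0.05, 1.55-fold, adjusted p = 3.29e-10). Scap, the SREBP escort, also rose (0.37 ± 0.07, adjusted p = 0.000275), and Insig2 had -0.22 and was not called. The lysosomal sterol exporters Npc1 (0.24) and Npc2 (0.25) were called higher against the mean of both vehicles but not against DMSO 24 h alone (0.16 and 0.10). The sterol carrier Stard4 had 54.8 and 55.2 CPM after BRM014, against 52.8 and 48.3 CPM with DMSO for 1 h and 45.4 and 49.3 CPM for 24 h (0.17), and was not called. Fads2, a fatty acid desaturase, rose (0.36 ± 0.06), and Fasn (0.15) and Scd1 (0.05) were not called. Neither LXR target was called, with 30.9 and 35.0 CPM of Abca1 after 3 h, against 35.5 and 37.7 CPM with DMSO for 1 h and 34.1 and 41.6 CPM for 24 h (-0.17).

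The vehicle itself moved between the times, which touches the comparison at 3 h and 6 h. Between DMSO 24 h and DMSO 1 h 1 member was called higher and 5 lower, and 18.5% of all genes were called, 8.91% higher and 9.63% lower. Insig1 was lower at DMSO 24 h (-0.36 ± 0.06, adjusted p = 0.000162), as were Fads2 (-0.39 ± 0.07) and Mvk (-0.45 ± 0.13), Hsd17b7 (-0.31) and Cyp51 (-0.19), and Npc2 was higher (0.29 ± 0.06). Against DMSO 1 h alone the 3 h values were 0.82 for Msmo1, 0.73 for Cyp51, 0.52 for Hmgcs1 and 0.45 for Insig1, and against DMSO 24 h alone 0.85, 0.93, 0.65 and 0.81 in that order of genes. All 8 were called. Of the 19 calls at 3 h, 6 were lost against one of the vehicles. Against DMSO 1 h alone Fads2 (0.16) and Mvk (0.31) were not called, and against DMSO 24 h alone Dhcr7 (0.23), Nsdhl (0.22), Npc1 (0.16) and Npc2 (0.10) were not. The call of Nsdhl was also lost with no filter on low counts and with only the libraries compared in the fit. Of the same 19, 16 remained with each library of these groups left out in turn, and those of Acat2, Dhcr7 and Nsdhl were lost in at least 1 case.

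Set directly against the 1 h libraries, 10 members were higher at 3 h and 0 lower, with 13.3% of all genes called, 5.83% higher and 7.45% lower. Msmo1 had 188 and 198 CPM at 3 h, against 130.3 and 138 CPM at 1 h (0.53 ± 0.06, adjusted p = 1.21e-07). Cyp51 (0.46 ± 0.06), Hmgcs1 (0.36 ± 0.05) and Insig1 (0.33 ± 0.06) followed, all with 3 h libraries above the 1 h libraries. Of the 10 calls, 5 were lost when 1 library was left out, Fdft1, Mvd, Npc1, Npc2 and Sqle.

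At 6 h 13 members were called higher and 2 lower against the mean of both vehicles, where 48.4% of all genes were called, 24.9% higher and 23.5% lower. Hmgcs1 stayed high with 567 and 549 CPM at 6 h, against 422 and 404 CPM with DMSO for 1 h and 364 and 395 CPM for 24 h (0.52 ± 0.05, adjusted p = 2e-10). Mvd had 0.66 ± 0.10, near its 3 h value of 0.67. Npc1 (0.45 ± 0.06, adjusted p = 1.76e-07), Npc2 (0.36 ± 0.05) and Scap (0.52 ± 0.07) were higher, after 0.24, 0.25 and 0.37 at 3 h, and of these 3 Npc1 was called between the 2 times. Npc1 had 82.4 and 81.2 CPM at 6 h, against 58.5 and 56.3 CPM with DMSO for 1 h and 63.4 and 65.6 CPM for 24 h, with no overlap. The 2 members called lower were Abca1, with 28.1 and 25.9 CPM at 6 h (-0.44 ± 0.09, adjusted p = 9.29e-05), and Soat1, which esterifies cholesterol (-0.27 ± 0.07). Calls of Cyp51, Dhcr7, Idi1 and Lss were lost in at least 1 case when 1 library was left out. Against DMSO 1 h alone Cyp51 (0.05), Fads2 (0.13), Idi1 (0.16), Mvk (0.22) and Soat1 (-0.17) were not called at 6 h, and against DMSO 24 h alone Dhcr7 (0.20) was not. Summed fibroblast markers were 3.56 to 4.18 CPM at 6 h, against 8.91 to 11.4 CPM with DMSO for 1 h and 8.39 to 9.72 CPM for 24 h. Over all libraries this sum was mostly Thy1 (median 5.90 CPM) and Col1a1 (2.07 CPM), with Postn, Dcn and Lum at medians of 0.07, 0.05 and 0 CPM. Trophoblast markers had 179 to 184 CPM, against 244 to 256 CPM and 204 to 233 CPM in the same order of vehicles, and the part of either list in the 6 h result was not tested. Over all libraries the trophoblast sum was mostly the keratins Krt8 (median 140.7 CPM) and Krt18 (95.9 CPM). Eomes, Cdx2 and Elf5 had medians of 5.88, 1.15 and 0.05 CPM, so this sum mainly follows the keratins, here and below.

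Cyp51, Msmo1 and Insig1 had passed their peak by 6 h, as the plot of levels in single libraries shows. Between 6 h and 3 h 1 member was called higher and 10 lower, with 21.6% of all genes called, 10.3% higher and 11.3% lower. Cyp51 had 122 and 123 CPM at 6 h, against 195 and 203 CPM at 3 h (-0.68 ± 0.06, adjusted p = 3.55e-09). Insig1 had 87.9 and 85.7 CPM at 6 h, against 139.5 and 144 CPM at 3 h (-0.69 ± 0.06, adjusted p = 4.77e-09), and Msmo1 133 and 125 CPM, against 188 and 198 CPM (-0.56 ± 0.06). The libraries of the 2 times were separate in all of these. For Insig1 the direction at 6 h depended on the vehicle, -0.24 (adjusted p = 0.00306) against DMSO 1 h and 0.12, not called, against DMSO 24 h. The calls of Npc1, the one member called higher at 6 h, and of Abca1, Fasn and Stard4 were lost when 1 library was left out, and with the 4 libraries of these times fitted alone 17 members were called.

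At 24 h the module was divided. With both batches fitted together (4 libraries against 4, batch as a term), 7 members were called higher and 10 lower, where 49.6% of all genes were called, 24.8% in each direction. Of the mevalonate enzymes 0 were higher and 3 lower (median -0.24), of the enzymes from squalene to cholesterol 2 were higher and 3 lower (median -0.11), and of the 4 genes of sterol handling 3 were higher and 1 lower. The share of members called, 17 of 28, was near the background, and the median over members was -0.13. Of the 17 calls, 14 remained whichever library was left out, and those of Sc5d, Scap and Soat1 did not. In one batch alone 6 of the 17 were not called. These were Mylip (-0.40), Npc2 (0.13), Sc5d (0.14), Scap (0.17) and Soat1 (0.08) in the first batch and Npc1 (0.18) in the second, and Sc5d was also lost with the replicate block or with no filter on low counts.

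Insig1 had the largest change in either direction. It had 47.7 and 44.0 CPM after 24 h of BRM014, against 78.1 and 84.4 CPM with DMSO in the first batch, and 57.3 and 53.5 CPM, against 86.5 and 87.1 CPM with DMSO in the second (-0.73 ± 0.07, fold 0.602, adjusted p = 1.95e-07). Idi1 had 46.1 and 48.8 CPM, against 69.1 and 83.7 CPM with DMSO in the first batch, and 56.0 and 56.3 CPM, against 87.5 and 100.3 CPM in the second (-0.71 ± 0.07, fold 0.61, adjusted p = 6.37e-07). All 4 treated libraries of both genes lay below all 4 vehicle libraries. Within batches the changes were -0.83 and -0.65 for Insig1 and -0.69 and -0.74 for Idi1, first and second batch in that order.

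Sqle had 89.5 and 94.8 CPM after 24 h of BRM014, against 115 and 131 CPM with DMSO in the first batch, and 95.6 and 89.0 CPM, against 138 and 128 CPM in the second (-0.47 ± 0.06, adjusted p = 1.52e-05). Hmgcs1, still high at 6 h, was now lower, with 312 and 308 CPM, against 364 and 395 CPM with DMSO in the first batch, and 315 and 299 CPM, against 357 and 358 CPM in the second (-0.25 ± 0.06, adjusted p = 0.00126). The treated libraries were below the vehicle libraries for both genes in each batch. Nsdhl, which acts in the removal of methyl groups from the sterol ring, was lower (-0.55 ± 0.08, adjusted p = 4.66e-05), as were Lss (-0.37 ± 0.07) and Acat2, the thiolase of the first mevalonate step (-0.38 ± 0.07). Stard4 had 36.1 and 40.8 CPM, against 45.4 and 49.3 CPM with DMSO in the first batch, and 33.2 and 33.1 CPM, against 48.4 and 53.5 CPM in the second (-0.46 ± 0.08, adjusted p = 0.000193). Outside the sterol pathway Scd1, the stearoyl-CoA desaturase, fell (-0.62 ± 0.10, adjusted p = 0.000236).

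Cyp51 and Msmo1, which had risen furthest at 3 h, were not called in the pooled fit, with 0.00 (95% interval -0.13 to 0.13) and -0.09 (-0.27 to 0.08). The members called higher at 24 h were Npc1, Npc2, Abca1, Ebp, Scap, Soat1 and Sc5d. Npc1 had 93.7 and 96.1 CPM, against 63.4 and 65.6 CPM with DMSO in the first batch, and 94.6 and 85.9 CPM, against 79.8 and 79.8 CPM in the second (0.37 ± 0.08, adjusted p = 0.000746). Its change was 0.56 in the first batch and 0.18, not called, in the second. Abca1, the cholesterol efflux pump, had 51.8 and 49.3 CPM, against 34.1 and 41.6 CPM with DMSO in the first batch, and 53.7 and 55.9 CPM, against 46.0 and 44.3 CPM in the second (0.35 ± 0.08, adjusted p = 0.00107). For both genes treated libraries were higher than vehicle libraries within each batch. Mylip, an LXR-induced ubiquitin ligase that marks lipoprotein receptors for breakdown, was called lower over both batches (-0.43 ± 0.13), but not in the first batch alone (-0.40, adjusted p = 0.0597).

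Set against 6 h of BRM014, the 24 h libraries had 4 members called higher and 15 lower, with 41.6% of all genes called, 19.5% higher and 22.1% lower. Hmgcs1 had 312 and 308 CPM at 24 h, against 567 and 549 CPM at 6 h (-0.88 ± 0.05, adjusted p = 1.86e-13), Insig1 fell by 0.95 ± 0.07 and Idi1 by 0.99 ± 0.09 on the log2 scale. Abca1 went the other way, with 51.8 and 49.3 CPM at 24 h, against 28.1 and 25.9 CPM at 6 h (0.88 ± 0.10, adjusted p = 2.16e-08). No libraries of the 2 times overlapped in these 4 genes. Calls of Ebp, Npc1, Scap and Stard4 were lost when 1 library was left out.

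The difference between the 24 h and the 1 h effect, each against its own vehicle in the first batch, was itself tested. It was positive for 1 member and negative for 13, with 31.6% of all genes called, 15% positive and 16.6% negative. Insig1 had the largest (-0.95 ± 0.09, adjusted p = 2.77e-09), followed by Idi1 (-0.85 ± 0.12), and Npc1 was the positive one (0.49 ± 0.10, adjusted p = 0.000194). Of the 14, the calls of Hsd17b7 and Stard4 were lost when 1 library was left out.

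The 24 h effect differed between batches for 2 members, Fdft1 and Msmo1, both with a higher value in the second batch, where 3.46% of all genes were called, 1.98% higher and 1.48% lower. Fdft1 had 124 and 115 CPM after BRM014, against 155 and 146 CPM with DMSO in the first batch (-0.34), but 128 and 122 CPM, against 109.9 and 106 CPM in the second (0.21). Its difference between batches was 0.56 ± 0.11 (adjusted p = 0.00753), and its direction at 24 h therefore depends on the batch. Msmo1 was lower in the first batch (-0.32) and had 0.11, not called, in the second (difference 0.45 ± 0.12, adjusted p = 0.0389). Leaving out BRM014 replicate 2 or 3 ended the call of Fdft1, and that of Msmo1 was lost without any 1 of 6 of the 8 libraries. Summed primitive endoderm markers were 233 to 267 CPM with BRM014, against 229 to 252 CPM with DMSO in the first batch, and 189 to 199 CPM, against 136 to 140.2 CPM in the second. Fibroblast markers had 1.18 to 2.00 CPM with BRM014 over both batches of 24 h, against 7.40 to 9.72 CPM with DMSO. Col1a2 was at 0 in every library, and the medians of Postn, Dcn and Lum over all libraries were at or near 0. Trophoblast markers had 132 to 143 CPM with BRM014, against 159 to 233 CPM with DMSO. The part of these markers in the 24 h results was not tested.

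The inactive analog, given at the same dose of 10 uM, was compared with BRM014 at 1 h and 24 h, 2 pairs of groups, with p-values adjusted over all genes tested in each. At 1 h the analog changed no member against DMSO by edgeR or DESeq2 (5 at an unadjusted p under 0.05), and 0.184% of all genes were called, 0.0559% higher and 0.128% lower. BRM014 against the analog at 1 h also gave 0 members by edgeR, with 0.16% of all genes called (0.0719% higher, 0.0879% lower), 7 members at an unadjusted p under 0.05 and 1 member by DESeq2. The 95% interval of that difference was at most ± 0.36 log2 wide for any member and ± 0.17 for the median member. These intervals are not adjusted over genes, so a difference whose interval leaves out 0 could still go uncalled. Abca1 had 0.31 with an interval of 0.11 to 0.51 (edgeR adjusted p = 0.293). Msmo1 had 130.3 and 138 CPM after 1 h of BRM014, and its difference from the analog was 0.24 with an interval of 0.12 to 0.35 (adjusted p = 0.093).

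At 24 h the analog changed part of the module, as the plot of both compounds shows. Against DMSO 24 h it raised 3 members and lowered 6, with 18.4% of all genes called, 8.91% higher and 9.52% lower. Abca1 had 59.6 and 58.5 CPM with the analog, against 34.1 and 41.6 CPM with DMSO (0.64 ± 0.09, 1.56-fold, adjusted p = 1.04e-05). Npc1 had 85.9 and 85.7 CPM with the analog, against 63.4 and 65.6 CPM with DMSO (0.41 ± 0.07), and Hmgcs1 had 314 and 319.7 CPM, against 364 and 395 CPM (-0.26 ± 0.05). Both analog libraries were outside the range of the DMSO libraries in these 3 genes and in Insig1, with 61.6 and 63.0 CPM, against 78.1 and 84.4 CPM. The other 5 calls, Fdft1, Idi1, Npc2, Sqle and Stard4, were lost when 1 library was left out, and with the 4 libraries compared fitted alone 3 members were called, and the calls of those 5 and of Hmgcs1 were lost. Summed primitive endoderm markers were 164 to 173 CPM with the analog, against 229 to 252 CPM with DMSO, and fibroblast markers 4.30 to 4.37 CPM, against 8.39 to 9.72 CPM. How far these markers bear on the analog's values was not tested.

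BRM014 differed from the analog at 24 h in 12 members, 3 higher and 9 lower, where 35.4% of all genes were called, 17.3% higher and 18.1% lower. Insig1 had 47.7 and 44.0 CPM with BRM014, against 61.6 and 63.0 CPM with the analog (-0.44 ± 0.07, adjusted p = 5.24e-06). Acat2 had 89.1 and 85.8 CPM with BRM014, against 119 and 112 CPM with the analog (-0.40 ± 0.06, adjusted p = 1.45e-05), and Msmo1 87.4 and 85.3 CPM, against 110.2 and 108 CPM (-0.34 ± 0.06, adjusted p = 2.8e-05). BRM014 libraries lay below analog libraries in all 3, as they did for Nsdhl (-0.46 ± 0.09) and Idi1 (-0.41 ± 0.09). Hmgcs1, by contrast, had a difference of -0.03 with a 95% interval of -0.15 to 0.08, and Stard4 -0.05 with -0.22 to 0.13. For Abca1 the interval was -0.41 to -0.04 (adjusted p = 0.0562), with 51.8 and 49.3 CPM with BRM014, against 59.6 and 58.5 CPM with the analog. Calls of Dhcr7, Mylip, Scap, Scd1, Soat1 and Sqle were lost when 1 library was left out, and the count was 7 without BRM014 replicate 2 or without analog replicate 2.

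**Figure D2:**
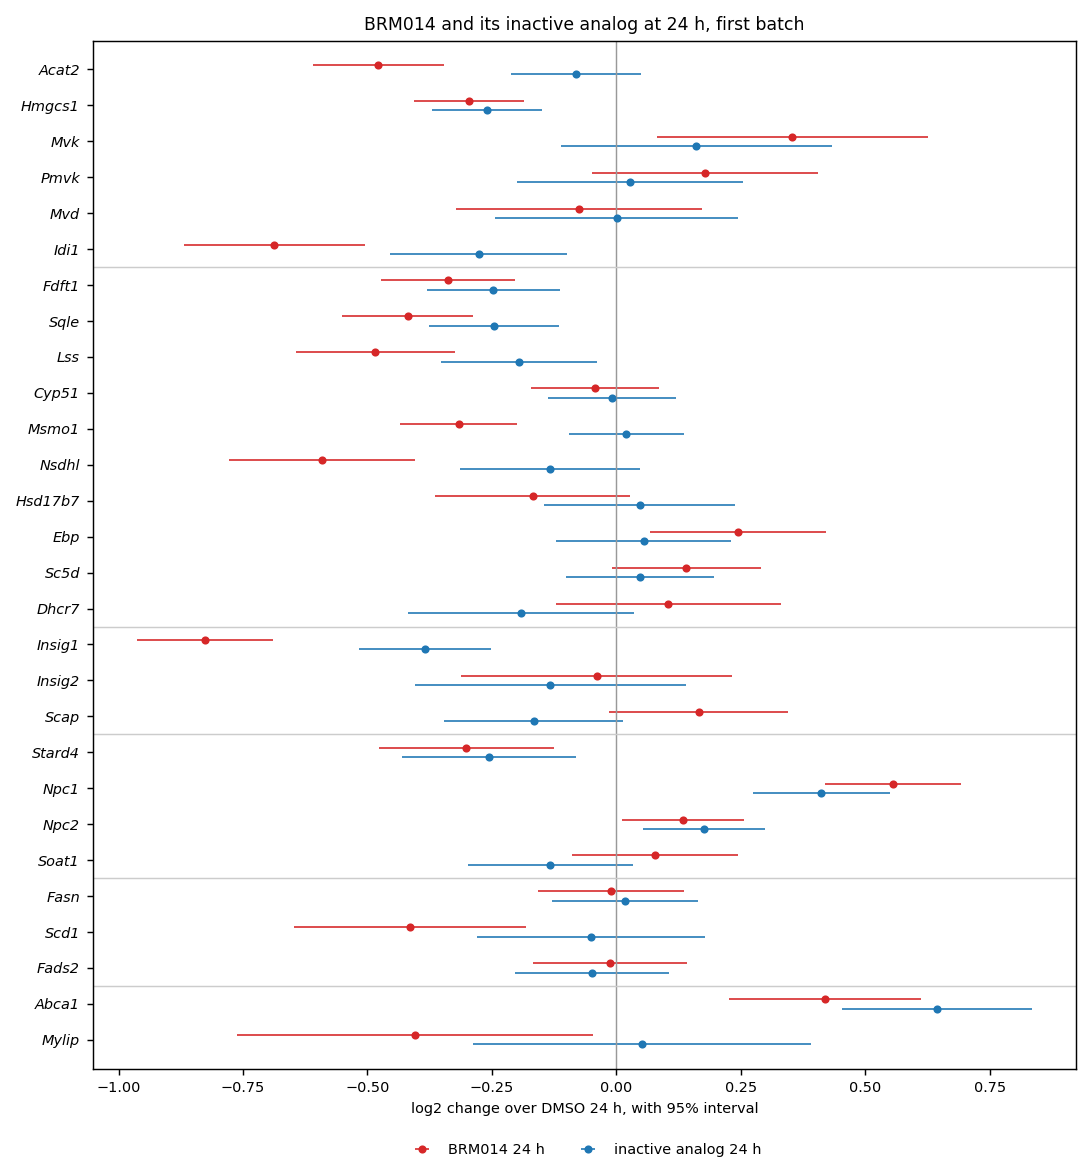
Log2 change over DMSO 24 h (x axis) with its 95% interval for the 28 genes by role (y axis), with BRM014 24 h in red above the inactive analog 24 h in blue, first batch. Insig1 lies at -0.83 with BRM014 and -0.38 with the analog, while Abca1 lies at 0.42 and 0.64.

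Removal of the inhibitor was followed after the short and the long treatment. Soon after a 1 h treatment few members differed from the end of treatment, and Insig1 was higher. After 30 min of washout 2 members were higher and 1 lower than at the end of the 1 h treatment, with 5.9% of all genes called, 2.88% higher and 3.01% lower. After 1 h of washout 3 were higher and 0 lower, with 3.98% of all genes called, 3.02% higher and 0.959% lower. Insig1 had 126 and 140.2 CPM after 30 min of washout and 152 and 163 CPM after 1 h of washout, against 113 and 114 CPM at the end of treatment. The 1 h value was 0.47 ± 0.06 (adjusted p = 7.23e-06), and the 30 min value 0.21 ± 0.06 (adjusted p = 0.0386). Soat1 was the other gene higher at both times, with 260.5 and 248 CPM after 30 min and 252 and 296 CPM after 1 h, against 195 and 211 CPM (0.31 ± 0.08 and 0.43 ± 0.08). The member lower at 30 min was Dhcr7, with 23.9 and 22.2 CPM, against 30.4 and 33.0 CPM at the end of treatment. None of the 3 calls at 30 min held whichever library was left out, and at 1 h those of Soat1 and Npc2 did not.

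Compared with DMSO 1 h, the 1 h washout had 10 members higher and 0 lower, where 8.1% of all genes were called, 4.95% higher and 3.15% lower. Insig1 (0.59 ± 0.06, adjusted p = 3.52e-07), Cyp51 (0.48 ± 0.06), Sc5d (0.47 ± 0.07) and Msmo1 (0.45 ± 0.06) led these. Msmo1 had 146 and 153 CPM after 1 h of washout, against 108 and 109.6 CPM with DMSO for 1 h, and Hmgcs1 518 and 515 CPM, against 422 and 404 CPM. No libraries overlapped in these genes. The washed cells had no washed vehicle and were sampled later after the first dose than their DMSO cells, so handling and time cannot be told apart from the removal of BRM014. Calls of Fdft1, Hsd17b7 and Soat1 were lost when 1 library was left out. Summed primitive endoderm markers were 312 to 337 CPM after 1 h of washout, against 231 to 242 CPM with DMSO for 1 h. Trophoblast markers were 332 to 359.9 CPM, against 244 to 256 CPM. At the end of the 1 h treatment the primitive endoderm sum was 208 to 213 CPM and the trophoblast sum 216 to 247 CPM, and the part of these markers in the washout result was not tested.

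After a 24 h treatment 14 of the 28 members were called against DMSO at 6 h of washout, and 2 at 24 h of washout, as the plot of the washout values shows. At 6 h of washout 6 members were higher and 6 lower than at the end of treatment, with 48.7% of all genes called, 25.3% higher and 23.4% lower. Insig1 had 56.2 and 58.5 CPM at 6 h of washout, against 47.7 and 44.0 CPM at the end of treatment (0.33 ± 0.07, adjusted p = 0.000195), and Sqle 115 and 121 CPM, against 89.5 and 94.8 CPM (0.36 ± 0.06). Washed and treated libraries were apart in both genes. Fads2 and Dhcr7 were at levels below those of both other states. These washed cells had no washed vehicle either and were sampled later after the first dose than their DMSO cells. Handling and time thus cannot be told apart from the removal of BRM014, here and at 24 h of washout. Fads2 had 26.2 and 27.9 CPM at 6 h of washout, against 48.8 and 54.7 CPM at the end of treatment (-0.93 ± 0.08, adjusted p = 8.28e-11) and 49.7 and 54.6 CPM with DMSO for 24 h (-0.94 ± 0.08). Dhcr7 had 16.4 and 17.4 CPM, against 30.1 and 38.9 CPM at the end of treatment (-1.02 ± 0.12, adjusted p = 2.36e-08) and 31.1 and 33.0 CPM with DMSO (-0.92 ± 0.12). Msmo1 was also lower than in either, with 70.1 and 68.6 CPM, against 87.4 and 85.3 CPM at the end of treatment (-0.31 ± 0.06) and 106 and 109 CPM with DMSO (-0.63 ± 0.06). Relative to DMSO 24 h, 4 members were higher and 10 lower at 6 h of washout, with 39.8% of all genes called, 20.8% higher and 19% lower. Abca1 was still high there, with 52.1 and 54.4 CPM, against 34.1 and 41.6 CPM with DMSO (0.50 ± 0.09, adjusted p = 0.000102). Calls of Idi1, Mvk, Mylip and Pmvk against the end of treatment, and of Ebp, Idi1, Npc1 and Scap against DMSO, were lost when 1 library was left out.

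At 24 h of washout 13 members were higher and 3 lower than at the end of treatment, where 50.4% of all genes were called, 25.8% higher and 24.6% lower. Of the 16 sterol enzymes 11 were higher and 0 lower (median 0.25). Insig1 had 87.7 and 82.9 CPM, against 47.7 and 44.0 CPM at the end of treatment (0.90 ± 0.07, 1.87-fold, adjusted p = 4.36e-12), and Idi1 82.8 and 85.6 CPM, against 46.1 and 48.8 CPM (0.83 ± 0.09, 1.78-fold, adjusted p = 6.68e-09). Npc1 (-0.50 ± 0.07), Abca1 (-0.48 ± 0.09) and Scap (-0.56 ± 0.09) were the 3 that fell. Libraries of the 2 states were apart in all 5 genes. Against DMSO 24 h 1 member was higher, Mvd (0.37 ± 0.12, adjusted p = 0.0286), and 1 lower, Scap (-0.39 ± 0.09, adjusted p = 0.00243), with 17.4% of all genes called, 8.91% higher and 8.52% lower. Insig1 differed from DMSO by 0.07 with a 95% interval of -0.06 to 0.21, Dhcr7 by -0.01 (-0.24 to 0.21), and Abca1 by -0.06 (-0.26 to 0.13), and their libraries overlapped with those of DMSO. Against the end of treatment, calls of Cyp51, Hmgcs1, Hsd17b7, Mvd and Mylip were lost when 1 library was left out. Neither call against DMSO held whichever library was left out, and without DMSO 24 h replicate 1 the number called was 7. Trophoblast markers were 302 to 308 CPM at 6 h of washout and 399 to 414 CPM at 24 h of washout, against 137 to 143 CPM at the end of treatment and 204 to 233 CPM with DMSO for 24 h. Primitive endoderm markers were 225 CPM in both libraries at 6 h and 177 to 191 CPM at 24 h of washout, against 233 to 267 CPM at the end of treatment and 229 to 252 CPM with DMSO. The part of these markers in the values after washout was not tested.

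**Figure D3:**
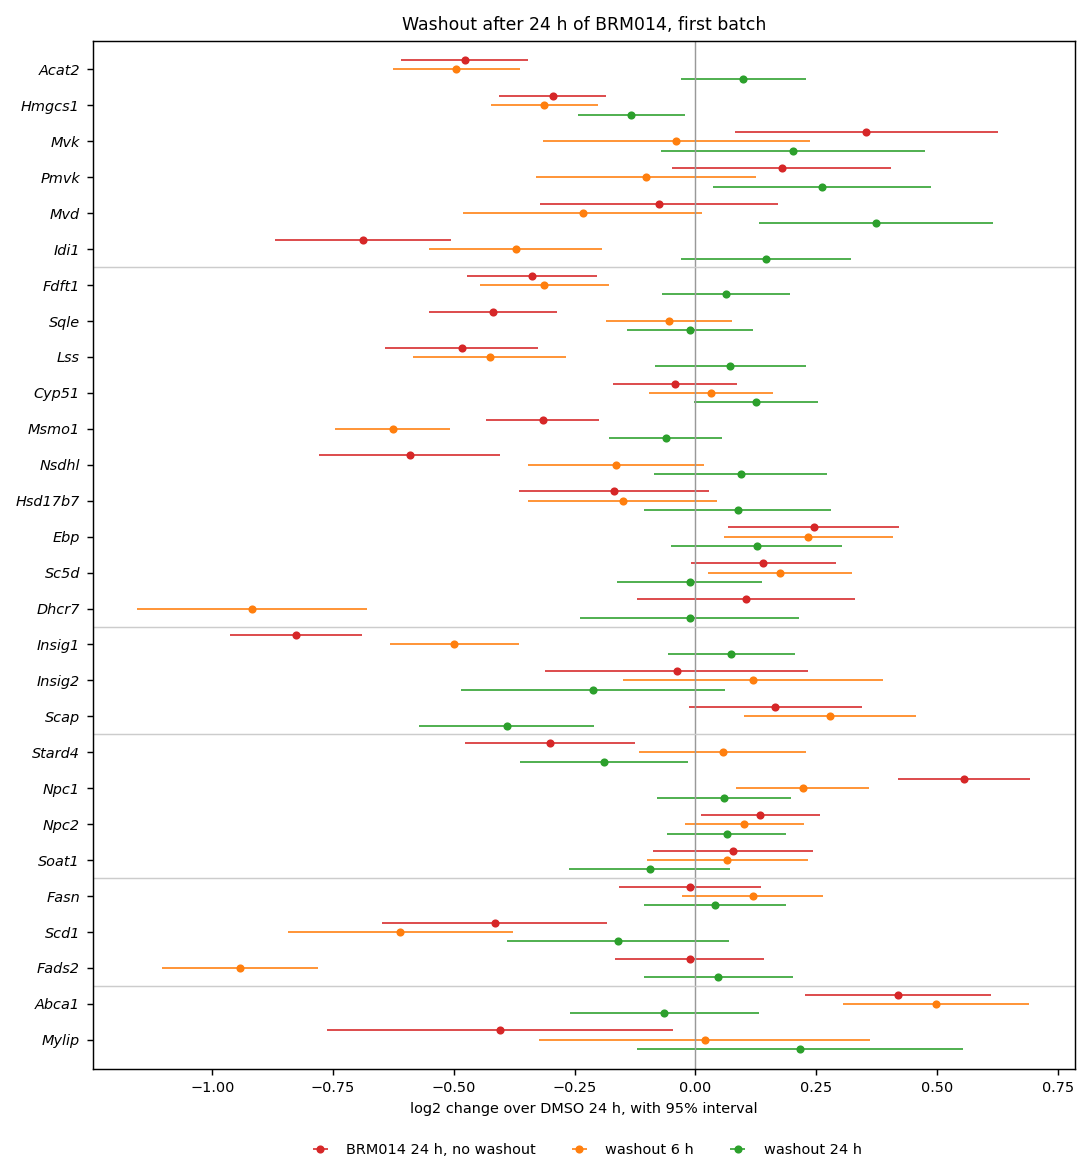
Log2 change over DMSO 24 h (x axis) with its 95% interval for the 28 genes by role (y axis), with BRM014 24 h, 6 h of washout and 24 h of washout as separate points, first batch. Insig1 moves over -0.83, -0.50 and 0.07, and Fads2 is lowest at 6 h of washout with -0.94.

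The starting levels of the module were compared between each mutant line and wild type. In vehicle, the line labelled Snf2hko had 20 members higher and 3 lower than wild-type cells of the same batch, where 56.5% of all genes were called, 28.9% higher and 27.7% lower. The median over members was 0.55, and 14 of 16 sterol enzymes were higher and 1 lower (median 0.66). Cyp51 had 281 and 274 CPM in Snf2hko with DMSO, against 99.2 and 96.2 CPM in wild type with DMSO (1.50 ± 0.07, 2.83-fold, adjusted p = 1.89e-12). Msmo1 had 203 and 196 CPM in Snf2hko, against 96.6 and 89.7 CPM in wild type (1.09 ± 0.07, 2.13-fold), and Fdft1 215 and 216 CPM, against 109.9 and 106 CPM (0.99 ± 0.06, 1.99-fold). The libraries of the 2 lines did not overlap in any of these, nor in Insig1, with 147 and 147 CPM, against 86.5 and 87.1 CPM (0.75 ± 0.07). Mvk (1.15 ± 0.09) and Pmvk (0.94 ± 0.10) were higher too, and Idi1 had 107 and 103 CPM, against 87.5 and 100.3 CPM (0.16), and was not called. Abca1, the LXR target, had 157 and 155 CPM in Snf2hko, against 46.0 and 44.3 CPM in wild type (1.78 ± 0.06, 3.44-fold, adjusted p = 4.96e-14). Lower in Snf2hko were Dhcr7 (-0.33), Npc1 (-0.18) and Mylip (-0.58). The calls of Acat2, Dhcr7 and Npc1 were lost when 1 library was left out.

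Markers of other cell types moved with this line. Summed primitive endoderm markers, 5 of 6 above 0 with Pdgfra at 0, had 660.5 to 677 CPM in Snf2hko with DMSO, against 136 to 140.2 CPM in wild type with DMSO. Trophoblast markers had 583 to 585 CPM, against 159 to 170.2 CPM. In no library of the series did Eomes, Cdx2 or Elf5 exceed 29.5, 4.72 and 0.23 CPM, in that order. The keratins Krt8 and Krt18 thus made up most of this sum. Their part in the levels of the module was not tested.

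In the line labelled Ino80ko with DMSO 9 members were higher and 6 lower than in wild type, with 45% of all genes called, 22.1% higher and 22.9% lower. The share of members called, 15 of 28, was near this background, and the median over members was 0.13. Abca1 was high in this line as well, with 152 and 149.7 CPM in Ino80ko, against 46.0 and 44.3 CPM in wild type (1.75 ± 0.06, 3.36-fold, adjusted p = 3.8e-13). Fads2 had 31.8 and 31.5 CPM in Ino80ko, against 67.0 and 58.7 CPM in wild type (-0.98 ± 0.09, adjusted p = 3.85e-08), and Soat1 117 and 124 CPM, against 198 and 207 CPM (-0.75 ± 0.07). Fdft1 was higher (0.63 ± 0.06, adjusted p = 1.7e-07) and Insig1 lower, with 65.4 and 71.9 CPM, against 86.5 and 87.1 CPM (-0.33 ± 0.07). Libraries of the lines were apart in these 5 genes. Summed primitive endoderm markers were 64.6 to 69.9 CPM in Ino80ko with DMSO, against 136 to 140.2 CPM in wild type, and trophoblast markers 88.8 to 93.3 CPM, against 159 to 170.2 CPM. The part of these markers in the Ino80ko levels was not tested. Both lines are set against the same 2 wild-type vehicle libraries. The calls of Acat2, Cyp51, Hsd17b7, Mvk and Mylip were lost when 1 library was left out.

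The effect of 24 h of BRM014 was tested for differences between each mutant line and wild type, which the plot of the 3 lines shows. In Snf2hko 17 members were called higher with BRM014 and 5 lower, where 56.9% of all genes were called, 28.7% higher and 28.2% lower. Idi1 had 145 and 139 CPM with BRM014, against 107 and 103 CPM with DMSO in Snf2hko (0.44 ± 0.07), while in wild type it fell. The difference of the 2 effects was 1.19 ± 0.10 (adjusted p = 7.36e-08). Hmgcs1 likewise had 711 and 678 CPM with BRM014, against 503 and 512 CPM with DMSO in Snf2hko (0.46 ± 0.06), and a difference from wild type of 0.68 ± 0.09. Scd1 had 278 and 234 CPM with BRM014, against 153 and 158 CPM with DMSO in Snf2hko (0.72 ± 0.08), but 59.9 and 58.5 CPM, against 108 and 103 CPM in wild type (-0.83 ± 0.08). That difference, 1.55 ± 0.11 (adjusted p = 8.67e-09), was among the largest of the module, beside Dhcr7 with 87.6 and 61.5 CPM with BRM014, against 32.0 and 32.5 CPM with DMSO in Snf2hko (difference 1.57 ± 0.18).

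Stard4 had 110.3 and 87.1 CPM with BRM014, against 69.6 and 65.4 CPM with DMSO in Snf2hko, and its difference from the wild-type effect was 1.18 ± 0.15. Scap was higher there, with 135 and 130.3 CPM with BRM014, against 68.4 and 70.4 CPM with DMSO (0.94 ± 0.07, 1.92-fold, adjusted p = 1.6e-09). Insig1 kept its wild-type direction and fell in Snf2hko as well, with 109 and 116 CPM with BRM014, against 147 and 147 CPM with DMSO (-0.38 ± 0.07), and Sqle too (-0.22 ± 0.06). Abca1 moved the other way, down in Snf2hko with 117 and 113 CPM with BRM014, against 157 and 155 CPM with DMSO (-0.43 ± 0.06), and its difference from wild type was -0.71 ± 0.09. In all, the effect of BRM014 was higher in Snf2hko than in wild type for 15 members and lower for 2, with 32.6% of all genes called, 15.8% higher and 16.8% lower. The calls of Fasn, Fdft1, Hsd17b7, Insig2, Sc5d and Sqle were lost when 1 library was left out. Within Snf2hko, calls of Acat2, Cyp51, Hsd17b7, Insig2, Lss, Npc2, Nsdhl and Soat1 were lost in that way. Summed primitive endoderm markers were 979.8 to 1123 CPM with BRM014, against 660.5 to 677 CPM with DMSO in Snf2hko. Trophoblast markers were 432 to 481 CPM with BRM014, against 583 to 585 CPM with DMSO in this line, and the part of both lists in these effects was not tested.

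In Ino80ko BRM014 raised 7 members and lowered 7, with 44.5% of all genes called, 22% higher and 22.6% lower. Scd1 fell as in wild type, with 65.4 and 59.7 CPM with BRM014, against 106 and 109 CPM with DMSO in Ino80ko (-0.78 ± 0.08, adjusted p = 1.06e-07). Msmo1 rose, with 140.1 and 145 CPM with BRM014, against 102 and 103 CPM with DMSO (0.47 ± 0.07, adjusted p = 1.01e-05), as did Sc5d (0.49 ± 0.08) and Npc2 (0.37 ± 0.06). Libraries with BRM014 and with DMSO were apart in these genes. Idi1 had 82.0 and 87.6 CPM with BRM014, against 91.6 and 91.3 CPM with DMSO (-0.11), and was not called, and its difference from the wild-type effect was 0.63 ± 0.10 (adjusted p = 0.00047). Sqle had 147 and 154 CPM, against 146 and 145 CPM (0.04), with a difference from wild type of 0.57 ± 0.09 (adjusted p = 0.000455). The effect of BRM014 was higher than in wild type for 6 members and lower for 2, with 9.03% of all genes called, 4.16% higher and 4.87% lower. Of these 8 differences those of Abca1, Idi1 and Sqle remained whichever library was left out, and the number called ranged from 3 to 7. Calls of Acat2, Fasn, Insig1 and Pmvk within Ino80ko were lost in that way. In this line trophoblast markers were 60.0 to 60.7 CPM with BRM014, against 88.8 to 93.3 CPM with DMSO. Fibroblast markers were 1.41 to 1.87 CPM, against 9.23 to 10.1 CPM, and the part of either list in the effect was not tested.

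**Figure D4:**
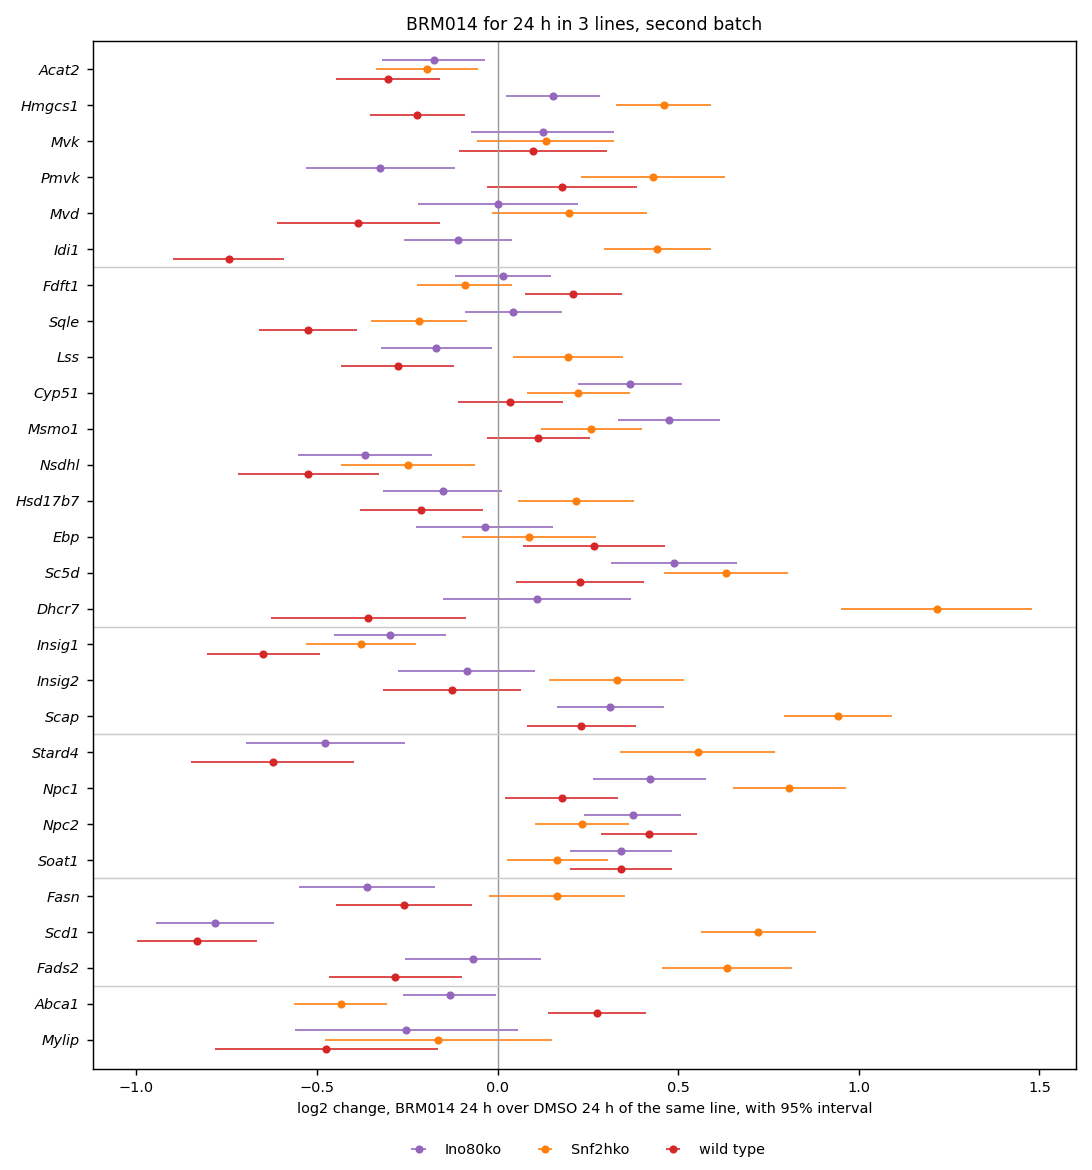
Log2 change with BRM014 24 h over DMSO 24 h of the same line (x axis) with its 95% interval, second batch, for the 28 genes by role (y axis), with Ino80ko, Snf2hko and wild type as separate points. Idi1 lies at -0.11, 0.44 and -0.74 and Scd1 at -0.78, 0.72 and -0.83 in these lines, in that order.

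Genes of the same pathway outside the module were counted from lists by role. The shares of all genes called in the comparisons used here were 31.2% at 3 h, 48.4% at 6 h, 49.6% at 24 h and 56.5% for Snf2hko against wild type in DMSO, and with so few genes a list nothing is read from counts set against them. Of 4 further SREBP2-linked genes, Tmem97, Mmab, Rdh11 and Erg28, 2 were higher and 1 lower at 3 h, 0 higher and 3 lower at 24 h, and all 4 higher in Snf2hko with DMSO. Tmem97, which binds sterols in the endoplasmic reticulum, changed by -0.29 ± 0.06 at 24 h (adjusted p = 0.00111). Of 9 genes of SREBP processing and of protein breakdown at the endoplasmic reticulum, 3 were higher and 1 lower at 3 h, 6 higher and 1 lower at 6 h, and 3 higher and 1 lower at 24 h. Erlin1, a membrane protein of the endoplasmic reticulum, had 57.0 and 58.6 CPM after 3 h of BRM014, against 50.5 and 42.9 CPM with DMSO for 1 h and 43.5 and 44.9 CPM for 24 h (0.35 ± 0.07, adjusted p = 0.000308), with no overlap. Of 9 genes of sterol uptake and transport, 1 was higher and 4 lower at 3 h and 2 higher and 3 lower at 24 h. The lipoprotein receptor gene Lrp8 had 7.67 and 8.18 CPM after 24 h of BRM014, against 21.0 and 19.2 CPM with DMSO in the first batch, and 5.81 and 5.58 CPM, against 18.9 and 18.1 CPM in the second (-1.52 ± 0.11 over both batches, adjusted p = 6.96e-09). Vldlr, a related receptor, was lower at 3 h (-1.21 ± 0.14) and higher at 24 h (0.60 ± 0.12). It had 2.71 and 2.35 CPM at 3 h, against 4.56 and 4.69 CPM with DMSO for 1 h and 7.21 and 7.63 CPM for 24 h, so the size of this fall depended on the vehicle. With the inactive analog for 24 h Vldlr had 16.1 and 14.8 CPM, against 12.6 and 11.3 CPM with BRM014 for 24 h in the same batch. Of the further fatty acid genes 3 of 11 tested were higher and 2 lower at 3 h, and 2 of 10 tested higher and 6 lower at 24 h, among them Mid1ip1, a regulator of acetyl-CoA carboxylase (-0.98 ± 0.09). Of 6 further genes of LXR and RXR function 3 were higher and 1 lower at 24 h, the lower one being Rxra, the partner of the LXR receptors (-0.92 ± 0.10). Rxra was also below DMSO with the analog for 24 h, at 22.2 and 21.5 CPM. In the same batch it had 14.9 and 16.5 CPM with BRM014 for 24 h and 34.9 and 36.1 CPM with DMSO for 24 h. Of 5 genes of the isoprenoid branches, which use mevalonate products for other purposes, 0 were higher and 1 lower at 3 h and 1 higher and 1 lower at 24 h.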

How the data were processed

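The deposited values are raw counts per gene, 1 column per library for 38 libraries. The submitters' processing notes name bcl2fastq 2.17, the aligner STAR and the build GRCm38 (mm10), while counter, annotation and strand setting are not stated in the sources used. The tests used edgeR 4.0.16 (R 4.3.3): genes were kept by filterByExpr (minimum count 10, total 15), scaled by TMM and tested by quasi-likelihood F-tests with Benjamini-Hochberg adjustment over all genes tested. The first batch (26 libraries, 12517 genes, biological coefficient of variation 6.15%), the second (12 libraries, 13130 genes, 6.63%) and the 8 wild-type libraries of 24 h with batch as a term (11787 genes, 9.16%) each had 1 fit, and 28 comparisons were made. Groups share 1 estimate of the spread because each has 2 libraries. Intervals are 95% intervals of the fit.

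The members, lists and comparisons were chosen with earlier results of these data known. Values in every library are given for Insig1, Idi1, Hmgcs1, Sqle, Msmo1, Stard4 and Abca1 where a result turns on them, and for called members with the smallest adjusted p, and results for some pathway genes are not reported here. Of the 19 replicate pairs, 0 were identical, and the chi-square of their counts per gene was 2.04 to 25.4. All count columns were matched to samples (0 unmatched). On simulated counts the fit of the first batch recovered 56.4% of genes changed by 0.5 log2 and 77.7% of those changed by 1, and 3.05% to 7.79% of calls over the 3 fits were false. Alternatives were DESeq2 1.42.0, its size factors, no filter, a replicate block, single vehicles or batches, the compared libraries alone, and each library left out in turn. Promoters were searched in Python 3.11.15.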

Additional observations from a re-analysis of the deposited data

Results flagged for a closer look

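The effect of BRM014 differed between 24 h and 1 h in wild-type cells for 14 members in a test of the difference itself (edgeR adjusted p under 0.05, log2 values, 24 h minus 1 h). The negative ones were Insig1 -0.95, Idi1 -0.85, Lss -0.68, Nsdhl -0.68, Sqle -0.63, Msmo1 -0.61, Scd1 -0.60, Acat2 -0.56, Hmgcs1 -0.46, Fdft1 -0.43, Hsd17b7 -0.41, Stard4 -0.40 and Cyp51 -0.32. Npc1 had 0.49. The 24 h effect differed between the second and the first batch for Fdft1 (0.56) and Msmo1 (0.45).

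The 24 h effect differed between Snf2hko and wild type for 17 members. It was higher in Snf2hko for Dhcr7 1.57, Scd1 1.55, Idi1 1.19, Stard4 1.18, Fads2 0.92, Scap 0.71, Hmgcs1 0.68, Npc1 0.63, Mvd 0.58, Lss 0.47, Insig2 0.46, Hsd17b7 0.43, Fasn 0.42, Sc5d 0.40 and Sqle 0.31. It was lower for Abca1 -0.71 and Fdft1 -0.30. Between Ino80ko and wild type it differed for 8 members, with Idi1 0.63, Sqle 0.57, Hmgcs1 0.37, Msmo1 0.36, Insig1 0.35, Cyp51 0.33, Abca1 -0.41 and Pmvk -0.50. Both lines share the wild-type libraries they are set against.

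In 3 of 56 checks of 4 wild-type libraries of 24 h, 1 library was set apart from the other 3 by a gap that passed Dixon's 95% limit for 4 values. The gap is judged against the range of the 4 values, so it can be small in CPM. These were Soat1 at 266 CPM in DMSO replicate 2, Scd1 at 74.0 CPM in DMSO replicate 1 and Mvd at 34.8 CPM in BRM014 replicate 4. Chance alone gives about 1 in 20 such cases for 4 values of one group, whereas these libraries came from both batches, which the limit does not take into account.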

How the results depend on the processing

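Groups of 2 libraries limit every call, and the 95% interval of the median member was ± 0.15 log2 at 3 h and ± 0.17 log2 at 24 h. With each library left out in turn, the number of members called ranged over 0 to 1 (2 with all libraries) for BRM014 against DMSO at 1 h, 6 to 10 (10) for 3 h against 1 h, 3 to 8 (6) for DMSO 24 h against 1 h, 5 to 10 (9) for the analog at 24 h, 7 to 9 (12) for BRM014 against the analog at 24 h, 0 to 4 (3) for 30 min of washout against 1 h of BRM014, 1 to 7 (2) for 24 h of washout against DMSO, 0 to 3 (2) for the difference between batches and 3 to 7 (8) for the difference between Ino80ko and wild type. With only the compared libraries fitted, 0 members were called at 1 h, 17 between 6 h and 3 h, 3 for the analog at 24 h, 0 for 30 min of washout and 0 for 24 h of washout against DMSO. DESeq2 called 1 member between BRM014 and the analog at 1 h. Fdft1 at 24 h was 0.21 in the second batch alone, against -0.06 with both batches. Of the values of single genes over the other settings, 3815 kept direction and side of the threshold, 77 gained and 83 lost a call and 1 changed direction, and with a library left out 3491 kept, 58 gained and 259 lost it.

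The labels do not say that replicate numbers pair libraries, and the correlations of same-numbered libraries ran from -0.52 to 0.63 in the first batch. With the replicate number as a block, 19 members were called at 3 h, 15 at 6 h and 17 at 24 h, and 2 at 1 h, all as without it, and the largest relative move was to 3 members with the block, against 2 without it, for the difference between batches. No paired analysis was possible for the mutant lines against wild type in DMSO because these groups share no replicate numbers.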
